A study of Mus musculus with 6 samples.

Results

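The genes described here write, erase or read histone and DNA methylation, remove acetyl groups from histones, or move nucleosomes. They were chosen by symbol: genes whose symbol begins with Kmt, Kdm, Hdac, Chd or Smarc, or names a Setd, Ezh, Dnmt1 or Dnmt3, or Tet gene, with the Suv39, Ehmt and Setdb genes left out. To these were added the genes that share at least 1 exonic base with them on the opposite strand, which are called partners below. The rule found 114 of the 57010 genes in the count table: 86 by symbol and 28 partners. Of the 86, 78 are protein-coding genes with a known role, 5 are of a pseudogene type and 3 are opposite-strand RNAs. Among the partners, 9 are protein coding and 19 are non-coding RNAs or other transcripts.

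The samples were 3 libraries of mouse embryonic stem cells (ESC) and 3 libraries of primary cortical neurons, all wild type and without any perturbation. The ESC were grown under standard conditions, and the neurons came from cortices of embryonic day 16.5 and were kept for 7 days in vitro. RNA was primed with oligo-dT and read as paired ends. The labels name no strain or sex and do not say whether replicates came from separate cultures or animals, so p-values measure the spread between these libraries, which may be technical. The library names of neuron replicates 2 and 3 hold an unexplained word, empty. The labels' batch field reads ESC for every ESC library and DIV7 for every neuron library, so batch and cell type cannot be told apart.

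Total counts were 1775055, 1368303 and 1477308 for ESC replicates 1, 2 and 3 and 624792, 556491 and 513425 for neuron replicates 1, 2 and 3. A count of 3 corresponded to 2.26 to 2.90 CPM (counts scaled by TMM to a common library size) in ESC and to 3.92 to 4.81 CPM in neurons. Here 3 counts is the floor used for bounds; levels under it can be detected but are imprecise, and the floor covers counting error only. The 8 pluripotency markers held 161 to 265 counts per ESC library but only 1 to 3 per neuron library, where Pou5f1, Nanog, Zfp42, Esrrb, Tfcp2l1 and Dppa5a stood at 0. The sum of the 10 cortical neuron markers did not separate the groups in the labelled direction. It was 78.7 to 85.0 CPM in ESC and 49.2 to 69.2 CPM in neurons. Even so, Rbfox3 and Snap25 were at 0 in every ESC library and all 10 were detected in neurons. Slc17a7, the vesicular glutamate transporter of cortical excitatory neurons, fell from 64, 49 and 54 counts to 2, 1 and 0 (log2 fold change -4.93, SE 0.49, adjusted p = 9.87e-12 by edgeR), and Stmn2 fell from 27, 25 and 16 counts to 8, 1 and 3 (log2 fold change -1.73, adjusted p = 0.000742). Slc17a7 and Stmn2, with means of 48.1 and 19.7 CPM, made up most of the ESC sum. Map2, a dendrite protein, rose from 0, 0 and 1 counts to 10, 13 and 13 (adjusted p = 3.6e-09 by edgeR). Gad1 had 3, 0 and 0 counts in ESC against 12, 2 and 7 in neurons. Gad2 had 0, 1 and 0 counts in ESC against 5, 6 and 1 in neurons. Neither was tested, and in CPM neither overlapped between the groups. Tubb3, Syp, Snap25 and Syt1 did overlap. Astrocyte markers summed to 3.62 to 5.80 CPM per ESC library, against 46.5 to 74.5 CPM per neuron library. On the same scale and in the same order, the sums were 24.1 to 29.9 and 40.1 to 60.03 for the oligodendrocyte lineage, and 41.6 to 45.2 and 76.0 to 118.6 for neural progenitors. They were 200.9 to 266.0 and 129.8 to 144.9 for microglia, and 3.01 to 9.05 and 0 to 2.98 for endothelial cells or pericytes. Pax6 made up most of the progenitor sum in neurons (61, 41 and 64 counts, against 8, 8 and 4 in ESC), and Csf1r most of the microglia sum (266, 258 and 204 counts in ESC and 97, 89 and 75 in neurons), while P2ry12 and Tmem119 were at 0 in ESC. The part of these other cells in the results below was not tested. In bulk RNA, fewer cells of a type and less RNA per cell cannot be told apart.

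One property of the table bears on the value of every gene, those of the marker genes above included. Genes with an exon opposite an exon of another gene make up 16.8% of all genes listed. They are 8548 of the 28820 genes with at least 1 count and 4674 of the 7150 tested below. They held 91.3% ± 0.52 of the counts in ESC and 89.0% ± 0.43 in neurons (SD, n = 3). The strand setting used in counting is not given in the sources used here. Reads from a chromatin gene and from its partner therefore cannot be told apart, and each value is the count assigned to that gene's row. Nor is it known from these sources which strand's reads a row holds, so this limit covers genes with no exon opposite to them too, such as Kmt2d, Chd4 and Hdac1. Of the 86 genes matched by symbol, 28 have an exon opposite to them and 58 do not. Of those 58, 12 still have a gene on the other strand somewhere within their span. Of the 114 genes, 10 share exonic bases with a gene on their own strand and are uncertain for that reason, among them Setd1a (3523 bases) and Chd2 (2030 bases).

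Most enzymes of the KMT and SETD groups place methyl groups on lysines, and the lysine demethylases of the KDM group remove them. Polycomb's EZH enzymes methylate histone H3 at lysine 27, which is linked to silencing. Most of the large proteins of the KMT2 and SETD1 groups act on lysine 4 at promoters and enhancers. Genes are grouped here by symbol, and the activity of their proteins was not tested. Dnmt3a, Dnmt3b and the cofactor Dnmt3l lay down DNA methylation, Dnmt1 copies it after replication, and TET enzymes oxidise it. CHD, ISWI and SWI/SNF (BAF) complexes spend ATP to slide or eject nucleosomes, and several BAF subunits are known to be exchanged when progenitors become neurons.

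In some pairs the 5′ ends of a chromatin gene and its partner overlap on opposite strands, so that each start lies inside the other gene by the table's positions. Windows were taken for the 5 such chromatin genes with 1 listed start, and the 4 whose partners have a call below are shown. They are Kmt2a and Setd7, which rose together with the partner, and Smarcc1 and Chd1l, whose partners alone passed the count filter. Kdm5a and Chd2 also have called partners in this arrangement but were not among the 5. Each window runs from 250 bases before to 50 bases after the start in RefSeq, build GRCm38.p6, and is printed 5′ to 3′ on the strand of the chromatin gene. Capitals mark GGGCGG or its reverse complement CCGCCC, the core of the GC box.
Kmt2a, chr9:44881240-44881539, minus strand: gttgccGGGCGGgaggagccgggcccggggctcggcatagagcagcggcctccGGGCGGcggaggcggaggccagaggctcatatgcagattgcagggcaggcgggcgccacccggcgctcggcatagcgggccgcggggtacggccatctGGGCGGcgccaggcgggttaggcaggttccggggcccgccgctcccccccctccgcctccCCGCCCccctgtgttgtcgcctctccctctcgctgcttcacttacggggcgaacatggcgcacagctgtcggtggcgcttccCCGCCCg
Setd7, chr3:51560774-51561073, minus strand: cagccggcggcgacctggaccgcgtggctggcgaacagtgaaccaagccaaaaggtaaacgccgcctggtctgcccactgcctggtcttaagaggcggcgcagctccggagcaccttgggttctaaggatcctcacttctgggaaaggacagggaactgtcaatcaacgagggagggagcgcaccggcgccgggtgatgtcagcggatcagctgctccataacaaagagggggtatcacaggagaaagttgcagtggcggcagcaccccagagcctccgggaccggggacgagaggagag
Smarcc1, chr9:110131774-110132073, plus strand: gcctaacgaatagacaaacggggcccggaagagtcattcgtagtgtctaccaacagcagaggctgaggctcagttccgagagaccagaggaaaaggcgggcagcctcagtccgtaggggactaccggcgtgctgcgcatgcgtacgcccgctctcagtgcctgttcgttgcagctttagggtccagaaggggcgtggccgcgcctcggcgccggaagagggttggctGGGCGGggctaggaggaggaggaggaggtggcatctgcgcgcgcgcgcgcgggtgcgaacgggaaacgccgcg
Chd1l, chr3:97610141-97610440, minus strand: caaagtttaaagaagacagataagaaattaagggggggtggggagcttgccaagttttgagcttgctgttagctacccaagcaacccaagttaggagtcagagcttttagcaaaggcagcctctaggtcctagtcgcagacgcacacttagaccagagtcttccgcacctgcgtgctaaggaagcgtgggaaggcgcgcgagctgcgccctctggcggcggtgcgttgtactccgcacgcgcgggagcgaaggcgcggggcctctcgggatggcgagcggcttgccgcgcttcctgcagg
The Kmt2a window holds 5 GC boxes and 36 CG dinucleotides. The Smarcc1 window holds 1 GC box and 33 CG dinucleotides, and the Setd7 and Chd1l windows hold 0 GC boxes with 21 and 24 CG dinucleotides. Counting both strands, 68.2% of the 85 windows listed for 61 chromatin genes held GGGCGG, against 35.7% of all 32851 windows. TATAAA stood in 4.71% of the chromatin gene windows and 13.6% of all, and CCAAT in 36.5% and 37.4%. The median window held 24 CG dinucleotides for chromatin genes and 7 over all windows. A match is a description of these letters and not a bound site.

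Of the 86 genes matched by symbol, 34 had enough counts to be tested in the main comparison, and 27 of them differed between neurons and ESC by edgeR's quasi-likelihood test (adjusted p under 0.05, Benjamini-Hochberg over 7150 genes). Neurons were higher in 17 and lower in 10. The background was as high: 85.6% of all tested genes were called, 47.0% as higher and 38.6% as lower, so the count is no result about chromatin genes as such. Their median log2 fold change, neuron against ESC, was 0.83, and that of all tested genes 0.37. With a required change of more than 2-fold (edgeR glmTreat), 17 were called, 11 higher and 6 lower, against 67.4% of all tested genes, 38.0% higher and 29.4% lower. In 28 of the 34 the CPM values of the groups did not overlap, which held for 86.4% of all tested genes. The split depended on scaling. With total counts in place of TMM, the median of all genes moved up by 0.73 on the log2 scale, 20 rose and 6 fell, and 86.5% of all tested genes were called, 56.6% higher and 29.9% lower. In a fit on genes that share no exonic base with an opposite gene, 10 of 16 were called, with 2 higher and 8 lower, where 86.1% of its 2265 genes were called, 47.1% higher and 39.0% lower.

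**Figure D1:**
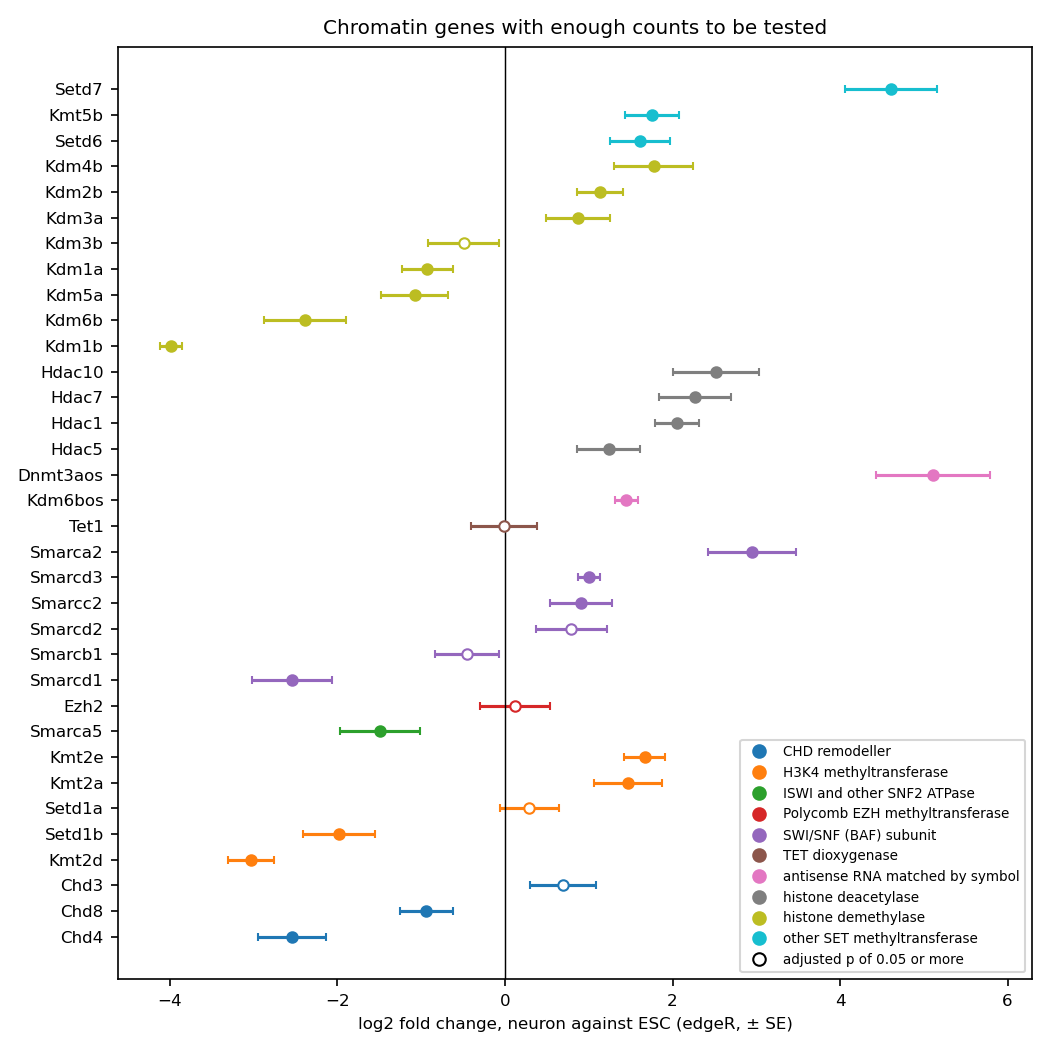
Log2 fold changes, neuron against ESC, of the 34 tested genes matched by symbol (x axis; points, edgeR estimates; bars, ± SE), grouped and coloured by role; open points had an adjusted p of 0.05 or more. Kdm1b lies lowest at -3.99 and Dnmt3aos highest at 5.11.

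The count filter itself favoured genes that are high in neurons. It asked for a fixed share of the library total in 3 libraries, which is 13.7 to 17.8 counts in ESC libraries but only 5.15 to 6.27 in neuron libraries. Of the 17 genes that rose, 13 reached it in all 3 neuron libraries but not in all 3 ESC libraries, and of the 10 that fell, 5 reached it in all 3 ESC libraries but not in all 3 neuron libraries. A gene that passed through 1 group alone was favoured to be called higher in that group. The 52 genes left out include 39 with at most 10 counts in every library, of which 3 (Dnmt3c, Smarca5-ps and Smarce1-ps1) had 0 counts throughout. Kdm3a had 9 to 21 counts in ESC and passed, whereas Dnmt1, with 13 to 37 counts in ESC, did not. With no filter, 83 of the 86 could be tested and 46 were called, 19 higher and 27 lower, against 40.8% of all 28820 genes tested, 21.2% higher and 19.6% lower. The 49 of them below the filter gave 4 higher and 17 lower calls. The median log2 fold change of the 83 was -0.66, or -0.22 with genes at 0 in a group set at their bound, and that of all genes was -0.09. The direction of the chromatin genes as a list thus turned with the filter, and both fits are given below.

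**Figure D2:**
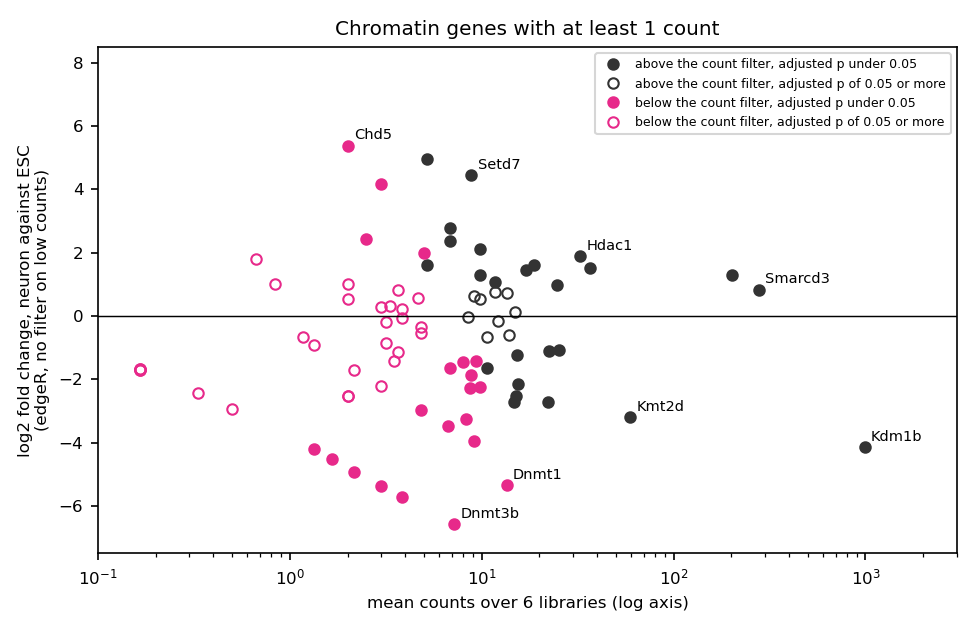
Mean counts over the 6 libraries (x axis, log scale) against log2 fold change, neuron against ESC, in the fit with no filter (y axis) for the 83 genes matched by symbol with at least 1 count. Among genes below the filter (pink), 17 of the 21 filled points lie under 0, Dnmt1 and Dnmt3b among them.

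Of the 7 genes of the KMT2 and SETD1 groups, 5 were tested, 2 rose and 2 fell. With no filter 2 rose and 3 fell of the 7. Kmt2a reached the filter's count in all neuron but not in all ESC libraries, and Setd1b the reverse, so the filter favoured their directions. Kmt2d, which methylates H3K4 at enhancers (chr15:98729550-98769085, minus strand, GRCm39), had 123, 113 and 96 counts in ESC against 9, 7 and 8 in neurons. All ESC libraries lay far above all neuron libraries. Its level was 96.3 ± 11.7 CPM in ESC and 11.7 ± 1.20 CPM in neurons (SD, n = 3), a fall of 3.03 on the log2 scale (log2 fold change -3.03, SE 0.28, adjusted p = 1.37e-12), and no exon lies opposite to it. Setd1b, the catalytic subunit of a SET1 complex, had 26, 30 and 25 counts in ESC against 2, 6 and 4 in neurons (log2 fold change -1.98, SE 0.43, adjusted p = 6.35e-05). Kmt2e and Kmt2a went the other way. Kmt2e had 29, 21 and 26 counts in ESC, compared with 52, 50 and 42 in neurons, or 21.9 ± 1.61 and 69.9 ± 4.0 CPM (log2 fold change 1.67, SE 0.24, adjusted p = 8.51e-08). Kmt2a, the MLL1 enzyme (chr9:44714652-44792594, minus strand, GRCm39), had 7, 8 and 7 counts in ESC against 18, 10 and 9 in neurons (log2 fold change 1.47, SE 0.41, adjusted p = 0.00116). Setd1a had 17, 20 and 15 counts in ESC against 12, 16 and 10 in neurons and was not called (log2 fold change 0.29, adjusted p = 0.439). Without a filter Kmt2b, with 14 to 16 counts in ESC and 2 to 5 in neurons, also fell (log2 fold change -1.42, adjusted p = 0.016), and Kmt2c, with 0 to 7 counts in any library, was not called. Kmt2e and Kmt2a have partners opposite to their exons, and Kmt2d and Setd1b do not.

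Of the 9 other SET genes, 3 were tested and rose (Setd7, Kmt5b and Setd6). Each reached the filter's count in all neuron libraries but not in all ESC libraries, so the filter favoured their shared direction, and with no filter 3 rose and 3 fell of the 9. Setd7, which methylates histone H3 and many other proteins (chr3:51422740-51468300, minus strand, GRCm39), had 1 count in each ESC library and 17, 13 and 20 in neurons. The ratio of summed counts, scaled for library size, was 28.0-fold, with a 95% counting interval from 9.06 to 141, and edgeR gave an adjusted p of 1.06e-09. Kmt5b, which methylates histone H4 at lysine 20, had 12, 11 and 14 counts in ESC, compared with 23, 30 and 22 in neurons (log2 fold change 1.76, SE 0.32, adjusted p = 5.5e-06). Setd6 had 13, 18 and 5 counts in ESC against 25, 18 and 23 in neurons (log2 fold change 1.61, SE 0.36, adjusted p = 9.83e-05), with no overlap after scaling. The relatives of Kmt5b that act on the same lysine fell in the fit without a filter. Kmt5a had 27, 12 and 14 counts in ESC against 1, 1 and 0 in neurons, a ratio of 15.8-fold lower (counting interval 4.15 to 133, adjusted p = 2.69e-07). Kmt5c had 22, 15 and 10 counts in ESC, compared with 0, 2 and 1 in neurons, 9.31-fold lower (counting interval 3.00 to 46.8, adjusted p = 1.04e-05). Setd5, with 13, 10 and 11 counts in ESC against 2, 3 and 2 in neurons, fell as well (log2 fold change -1.65, adjusted p = 0.0191). Setd2, Setd3 and Setd4 were not called.

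The EZH pair showed no common change. Ezh2, the main H3K27 methyltransferase of dividing cells, had 14, 7 and 10 counts in ESC against 7, 7 and 6 in neurons, that is 8.79 ± 1.90 and 9.73 ± 0.655 CPM, and the groups overlapped (log2 fold change 0.12, SE 0.42, adjusted p = 0.795). Ezh1, its paralogue in resting cells, had 18, 15 and 13 counts in ESC, compared with 1, 1 and 4 in neurons and fell in the fit without a filter (log2 fold change -2.29, SE 0.59, adjusted p = 0.000419).

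Among the 18 histone demethylase genes, 8 were tested, of which 4 fell and 3 rose. With no filter 2 rose and 6 fell of the 18, with a median log2 fold change of -1.33. Kdm4b and Kdm3a reached the filter's count in all neuron but not in all ESC libraries, and Kdm6b and Kdm5a the reverse. The filter thus favoured the directions in which these genes were called. Kdm1b, the LSD2 enzyme that removes H3K4 methylation (chr13:47196975-47238755, plus strand, GRCm39), carried by far the most counts of all 86 genes. It had 2168, 1668 and 1886 counts in ESC against 79, 83 and 52 in neurons. Its level was 1651 ± 49.3 CPM in ESC and 103 ± 20.2 CPM in neurons (log2 fold change -3.99, SE 0.13, adjusted p = 1.47e-26), and its row alone held 58.1% to 61.9% of the counts of the 86 genes in ESC libraries and 4.89% to 7.74% in neuron libraries. The 3′ end of Kdm1b shares 505 exonic bases with Dek (chr13:47238251-47259677, minus strand), which encodes a chromatin protein abundant in dividing cells. Dek had 15, 12 and 18 counts in ESC against 4, 5 and 6 in neurons, so the pair's counts lay almost all on the Kdm1b row. Whether they came from Kdm1b or from Dek transcripts cannot be told apart.

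Kdm6b, an H3K27 demethylase, had 39, 27 and 16 counts in ESC, compared with 2, 1 and 6 in neurons (log2 fold change -2.39, SE 0.49, adjusted p = 3.03e-05), or -3.45 without neuron replicate 3. Kdm1a, the LSD1 enzyme, had 47, 29 and 40 counts in ESC against 12, 15 and 9 in neurons (log2 fold change -0.93, SE 0.30, adjusted p = 0.00536). Kdm5a had 30, 26 and 16 counts in ESC against 4, 8 and 8 in neurons (log2 fold change -1.08, SE 0.39, adjusted p = 0.0116), a call that was lost without neuron replicate 1 (log2 fold change -0.74). Both Kdm1a and Kdm5a lost their call with total counts. Kdm4b, an H3K9 demethylase, rose from 4, 3 and 3 counts to 8, 7 and 6 (log2 fold change 1.77, SE 0.47, adjusted p = 0.000808). Kdm2b, which brings a Polycomb complex to CpG islands, rose from 24, 21 and 19 counts to 32, 28 and 24 (log2 fold change 1.13, SE 0.28, adjusted p = 0.000294). Kdm3a had 21, 9 and 9 counts in ESC, compared with 10, 12 and 20 in neurons. The Kdm3a groups overlapped, and its call (log2 fold change 0.87, adjusted p = 0.0356) was kept in only 6 of 15 alternative settings. It was lost with no filter (log2 fold change 0.72, edgeR adjusted p = 0.132). It was also lost without ESC replicate 2 or 3 or without neuron replicate 2 or 3. Kdm3b was not called. Below the filter, the H3K4 demethylases Kdm5b and Kdm5c fell in the fit without it. Kdm5c had 16, 10 and 12 counts in ESC against 1, 0 and 1 in neurons, 11.3-fold lower (counting interval 2.92 to 96.6, adjusted p = 4.22e-05). Kdm5b had 16, 4 and 7 counts in ESC against 1, 0 and 1 in neurons, 8.02-fold lower (counting interval 2.02 to 69.6, adjusted p = 0.00177). Kdm6a, with 6, 3 and 2 counts in ESC, compared with 0, 1 and 0 in neurons, was not called (adjusted p = 0.0801).

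Of the 11 histone deacetylase genes, 4 were tested (Hdac1, Hdac10, Hdac7 and Hdac5) and rose. Each reached the filter's count in all neuron libraries but not in all ESC libraries, so the filter favoured their shared direction. With no filter 4 rose and 2 fell of the 11, with a median log2 fold change of -0.86. Hdac1, the class I enzyme of the NuRD, Sin3 and CoREST complexes (chr4:129409897-129436506, minus strand, GRCm39), had 21, 13 and 22 counts in ESC against 48, 48 and 43 in neurons. Every neuron library exceeded every ESC library, at 67.7 ± 4.57 against 16.1 ± 3.67 CPM (log2 fold change 2.06, SE 0.26, adjusted p = 5.02e-09). No exon lies opposite to Hdac1, and the nearest gene on the other strand, Marcksl1, is 119 bases away, with 14 to 26 counts in ESC and 7 to 17 in neurons. The class II genes were Hdac10, Hdac7 and Hdac5. Hdac10 had 1, 3 and 5 counts in ESC against 7, 10 and 15 in neurons (log2 fold change 2.52, SE 0.51, adjusted p = 2.58e-05). Hdac7 had 8, 3 and 4 counts in ESC, compared with 20, 9 and 15 in neurons (log2 fold change 2.27, SE 0.43, adjusted p = 1.02e-05). Hdac5 had 13, 8 and 8 counts in ESC against 16, 15 and 10 in neurons (log2 fold change 1.24, SE 0.38, adjusted p = 0.00282), and its call was lost in the fit on genes that share no exonic base (log2 fold change 0.49). Hdac2, the class I paralogue of Hdac1, went down in the fit without a filter, with 25, 7 and 7 counts in ESC against 3 in every neuron library (log2 fold change -1.47, SE 0.56, adjusted p = 0.0231). Hdac8 had 6, 1 and 3 counts in ESC and was listed at 0 in neurons (adjusted p = 0.0187). Hdac9 had 1 count in 1 ESC library, and Hdac11 had 1 count in each ESC library and 0 in neurons.

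None of the 5 DNA methyltransferase genes passed the filter, and all values for them come from the fit without it, in which 3 fell and 1 rose among the 4 with counts. Dnmt1, the maintenance enzyme (chr9:20818505-20871184, minus strand, GRCm39), had 37, 13 and 30 counts in ESC against 0, 1 and 0 in neurons. The scaled ratio was 47.6-fold lower in neurons, with a counting interval from 8.29 to 1902 (adjusted p = 1.76e-12). Dnmt3b, an enzyme of early embryonic methylation (chr2:153491370-153529650, plus strand, GRCm39), had 20, 9 and 14 counts in ESC and 0 in all neuron libraries, at least 2.76-fold lower when set against 3 counts per library (adjusted p = 5.26e-08). Dnmt3l, its cofactor without catalytic activity, had 6 counts in each ESC library and 0 in neurons, at least 1.19-fold lower (adjusted p = 0.000794). Dnmt3a went up, with 4, 3 and 1 counts in ESC, compared with 10, 7 and 5 in neurons (log2 fold change 1.99, SE 0.63, adjusted p = 0.00548). Its antisense RNA Dnmt3aos passed the filter, but reached its count in all neuron libraries and in no ESC library. The filter thus favoured the direction of Dnmt3aos. This RNA had 0, 0 and 1 counts in ESC against 13, 10 and 7 in neurons, 50.5-fold higher (counting interval 8.39 to 2059, adjusted p = 1.31e-08). Its fitted log2 fold change of 5.11 was 6.64 without ESC replicate 3 and 4.50 without ESC replicate 1. Dnmt3a and Dnmt3aos share 133 exonic bases on opposite strands, so their rows are not independent.

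Tet1, known as a TET enzyme of ESC, did not separate the groups here. It had 20, 12 and 14 counts in ESC against 6, 14 and 7 in neurons, or 13.1 ± 1.76 and 13.3 ± 6.76 CPM (log2 fold change -0.01, SE 0.39, adjusted p = 0.982). Tet2, with 0 to 5 counts in any library, was not called. Tet3 had 1 count in each ESC library and 2, 4 and 6 in neurons, 6.73-fold higher with a counting interval from 1.82 to 37.2 (adjusted p = 0.0191 without a filter).

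**Figure D3:**
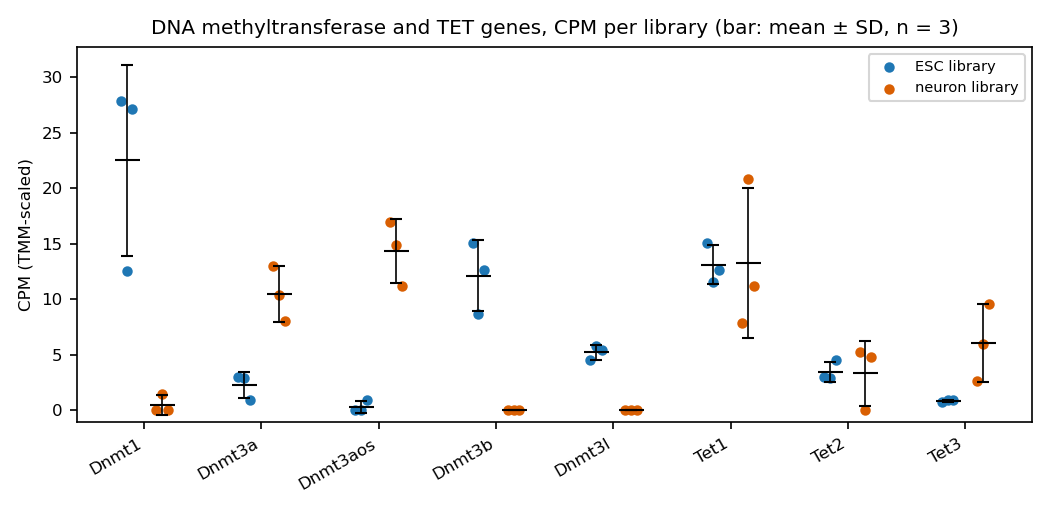
CPM (y axis) of the DNA methyltransferase and TET genes and Dnmt3aos in each ESC (blue) and neuron (orange) library; black bars show the mean ± SD of 3 libraries. Dnmt1, Dnmt3b and Dnmt3l stand near or at 0 in neurons, Dnmt3a and Dnmt3aos are higher there, and the Tet1 groups overlap.

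Of the 10 CHD remodeller genes, 3 were tested and 2 fell. With no filter 1 rose and 3 fell of the 10. Chd4 reached the filter's count in all ESC but not in all neuron libraries, so the filter favoured its direction. Chd4, the ATPase of the NuRD complex, had 55, 41 and 25 counts in ESC, compared with 3, 6 and 3 in neurons, and no exon lies opposite to it. Its level dropped from 34.6 ± 10.4 to 5.89 ± 2.68 CPM (log2 fold change -2.55, SE 0.41, adjusted p = 4.91e-07). Chd8 had 34, 31 and 38 counts in ESC against 12, 12 and 8 in neurons (log2 fold change -0.94, SE 0.32, adjusted p = 0.00675), and its call was lost with total counts (log2 fold change -0.21) and with a filter on a mean of at least 10 counts (log2 fold change -0.57). Chd3 had 12, 8 and 10 counts in ESC against 10, 11 and 8 in neurons (log2 fold change 0.69, adjusted p = 0.0991). Chd5, a NuRD ATPase known from neurons, had 0 counts in ESC and 1, 5 and 6 in neurons, at least 2.33-fold higher against 3 counts per library (adjusted p = 0.000254 without a filter). Chd7, with 1 to 3 counts in any library, was not called. Chd1 had 2, 3 and 8 counts in ESC and was listed at 0 in neurons (adjusted p = 0.00537).

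Of the 9 SWI/SNF (BAF) genes, 6 were tested, 3 rose and 1 fell. With no filter 2 rose and 3 fell of the 9. Smarca2 and Smarcc2 reached the filter's count in all neuron libraries but in no ESC library, and Smarcd1 the reverse. The filter thus favoured the directions in which these genes were called. The alternative ATPases went in opposite directions. Smarca2 (BRM) had 0, 3 and 4 counts in ESC, compared with 13, 9 and 12 in neurons, or 2.17 ± 1.92 and 16.5 ± 2.93 CPM (log2 fold change 2.95, SE 0.52, adjusted p = 3.41e-06), or 2.21 without ESC replicate 1. Smarca4 (BRG1) had 26, 13 and 13 counts in ESC against 4, 1 and 2 in neurons and fell in the fit without a filter (log2 fold change -2.25, SE 0.55, adjusted p = 0.00021). In that fit Smarca2 rose (log2 fold change 2.78, adjusted p = 9.15e-06). The difference between the changes of Smarca2 and Smarca4 was not tested. Opposite directions were also seen for the alternative BAF60 subunits, again without a test of the difference. Smarcd1 had 24, 35 and 21 counts in ESC against 4, 2 and 2 in neurons (log2 fold change -2.54, SE 0.48, adjusted p = 7.6e-06). Smarcd3 (chr5:24795816-24829409, minus strand, GRCm39) had 254, 242 and 265 counts in ESC, compared with 356, 254 and 302 in neurons, or 222 ± 26.6 and 442 ± 56.2 CPM (log2 fold change 1.00, SE 0.13, adjusted p = 7.97e-09). Smarcd2 was not called (log2 fold change 0.79, adjusted p = 0.0809).

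Of the scaffold subunits, Smarcc1 fell without a filter, with 20, 13 and 12 counts in ESC against 2, 6 and 0 in neurons (log2 fold change -1.86, SE 0.55, adjusted p = 0.00278). Smarcc2 had 13, 10 and 10 counts in ESC against 13, 12 and 12 in neurons. Its call (log2 fold change 0.91, adjusted p = 0.0231) was lost whenever any 1 of the 6 libraries was left out. With no filter it was lost too (log2 fold change 0.75, edgeR adjusted p = 0.135), and it was kept in only 6 of 15 alternative settings. Smarcb1 was not called (log2 fold change -0.45, adjusted p = 0.257). Of the 4 ISWI and other SNF2 genes, Smarca5, the ISWI ATPase, had 23, 17 and 13 counts in ESC, compared with 3, 7 and 1 in neurons (log2 fold change -1.49, SE 0.48, adjusted p = 0.00464), a call lost with total counts (log2 fold change -0.77); without neuron replicate 2 the value was -2.42. Smarcad1 had 5, 12 and 6 counts in ESC and 0 in neurons, at least 1.58-fold lower (adjusted p = 0.000108 without a filter).

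The partners carried more counts than the chromatin genes themselves. Of the 28, 23 were tested, and 22 differed, 14 higher and 8 lower in neurons, beside the 85.6% of all tested genes given above. Their median log2 fold change was 0.76, against 0.37 for all tested genes. In 21 of the 23 the groups did not overlap, which held for 86.4% of all tested genes. Past 2-fold, 11 were higher and 4 lower, where 38.0% of all tested genes were higher and 29.4% lower. With total counts, 15 were higher and 4 lower of 19 called, where 56.6% of all tested genes were higher and 29.9% lower. The count filter bears on partners too. 5031434O11Rik, Gm13645, Slc48a1 and Dhx30 reached its count in all neuron but not in all ESC libraries, and Gm43075 and Gm45641 the reverse. The filter thus favoured the directions in which these partners were called. With no filter, 14 were higher and 9 lower of 27, with a median log2 fold change of 0.54. Of all 28820 genes in that fit, 21.2% were higher and 19.6% lower.

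Gm26590, an antisense RNA opposite Chd8 (chr14:52434959-52451309, plus strand, GRCm39), was the most counted partner. It had 2539, 2581 and 2104 counts in ESC against 572, 462 and 483 in neurons, or 2104 ± 340 and 736 ± 43.7 CPM (log2 fold change -1.51, SE 0.11, adjusted p = 1.26e-15). Chd8 and Gm26590 share 953 bases, and 98.6% ± 0.31 of their joint counts in ESC and 97.9% ± 0.45 in neurons lay on Gm26590. Per kilobase of exon, Gm26590 stood at 1496 CPM in ESC and Chd8 at 1.81. Gm43075, opposite Chd1l, fell from 182, 163 and 130 counts to 5, 7 and 12 (log2 fold change -3.54, SE 0.28, adjusted p = 1.74e-14). 9430064I24Rik, opposite Setd1a over 29 bases, fell from 416, 273 and 345 counts to 75, 46 and 62 (log2 fold change -1.74, SE 0.16, adjusted p = 1.48e-12), while Setd1a was not called. 9430064I24Rik also shares 1729 exonic bases with Hsd3b7, a gene outside the rule. Ccdc77, opposite Kdm5a, fell from 105, 117 and 71 counts to 20, 28 and 18 (log2 fold change -1.40, adjusted p = 3.85e-06). Gm45641, opposite Chd9, fell from 40, 39 and 22 counts to 11, 8 and 5 (log2 fold change -1.32, adjusted p = 0.000918). Opposite Smarcd1, Gm17349 had 133 to 187 counts in ESC and 47 to 60 in neurons (log2 fold change -0.92, adjusted p = 2.22e-05), and Gm34939 had 409 to 594 and 164 to 216 (log2 fold change -0.71, adjusted p = 4.02e-05). With total counts Gm17349 and Gm45641 lost their calls and Gm34939 turned to a log2 fold change of 0.02.

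Among the partners that rose, 5031434O11Rik, opposite Setd7 over 131 bases, had 1, 0 and 1 counts in ESC against 50, 26 and 24 in neurons. The scaled ratio was 84.1-fold, with a counting interval from 22.7 to 704 (adjusted p = 4.78e-13). Gm13645, within Chd5, rose from 6, 13 and 5 counts to 67, 53 and 55 (log2 fold change 3.58, SE 0.31, adjusted p = 2.92e-13). Slc48a1, a heme transporter gene opposite Hdac7 over 29 bases, rose from 3, 4 and 2 counts to 21, 15 and 20 (log2 fold change 3.32, SE 0.44, adjusted p = 1.39e-08). Gm42585, within Kmt2c, rose from 47, 44 and 21 counts to 157, 164 and 105 (log2 fold change 2.67, adjusted p = 2.6e-13). 4931403E22Rik, opposite Smarca2 over 40 bases, rose from 42, 35 and 30 counts to 98, 115 and 114 (log2 fold change 2.37, adjusted p = 3.3e-13). AC061963.1, opposite Kmt2a, rose from 26, 26 and 25 counts to 97, 63 and 71 (log2 fold change 2.32, adjusted p = 1.03e-11). All neuron libraries lay above all ESC libraries in CPM for each of these 6.

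Gm14573 and Gm44002 both lie opposite Hdac11, whose own row held 3 counts in all. Gm14573 rose from 43, 26 and 31 counts to 91, 88 and 72 (log2 fold change 2.08, adjusted p = 2.3e-11) and Gm44002 from 119, 75 and 97 counts to 153, 142 and 140 (log2 fold change 1.34, adjusted p = 1.21e-09). Gm44686, opposite Chd2, rose from 62, 45 and 36 counts to 102, 85 and 64 (log2 fold change 1.56, adjusted p = 1.01e-08), although the Chd2 row, with 3 to 7 counts in any library, was not called. Dhx30, an RNA helicase gene opposite Smarcc1, rose from 34, 9 and 19 counts to 45, 23 and 33 (log2 fold change 1.46, SE 0.31, adjusted p = 4.89e-05). The others that rose were Srpk2, Chpf2, Gm16066 and 4930599N23Rik, with log2 fold changes from 0.55 to 1.27. Rnf34, opposite Kdm2b, fell (log2 fold change -0.52, adjusted p = 0.0115), but the groups overlapped, the call was lost without neuron replicate 1 or 2 (log2 fold changes -0.45 and -0.57), and with total counts the value was 0.21. AC160993.1, opposite Setd4, was not called, and Dek, Aire, A930024E05Rik, Gm42567 and Mir671 were not tested.

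The overlaps make 30 pairs of a chromatin gene and a partner, which share 29 to 2466 exonic bases. The partner had more counts than the chromatin gene in every library in 19 pairs, the chromatin gene did in 3 (Kdm1b with Dek, Kdm2b with A930024E05Rik, Smarcd3 with Mir671), and 8 were mixed. By arrangement, the partner had more in every library in 3 of 9 head-to-head pairs, in 7 of 10 tail-to-tail pairs and in 9 of 11 pairs with one gene within the span of the other. These are counts per row and are not divided by length. Smarcd3 and Chpf2, which encodes a chondroitin synthesis factor, share 2466 bases, the longest overlap. Their counts were divided almost evenly, with 55.2% ± 2.97 on Chpf2 in ESC and 47.6% ± 1.86 in neurons. For Kdm1b and Dek the partner's share was 0.78% ± 0.14 in ESC and 6.95% ± 2.97 in neurons.

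**Figure D4:**
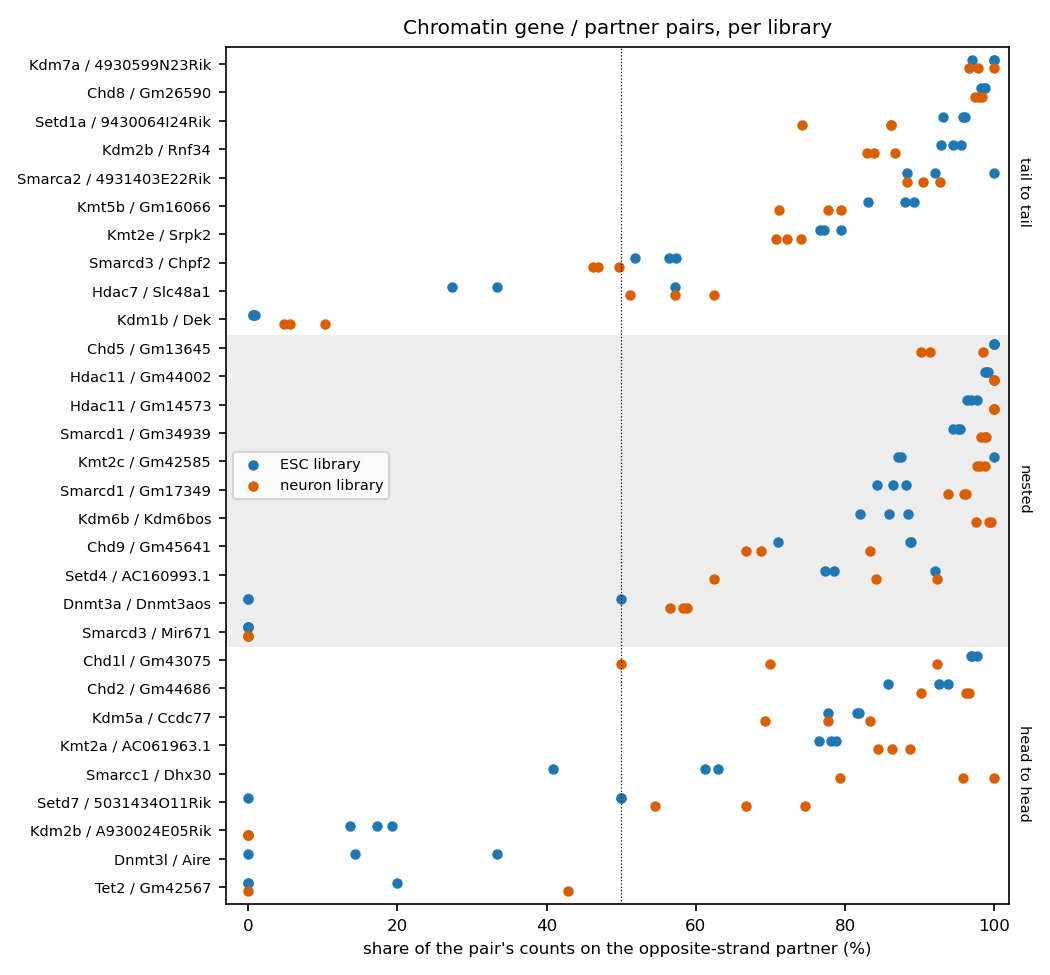
Share of each pair's counts that lay on the opposite-strand partner (x axis, %), for 30 pairs of chromatin gene and partner (y axis), in ESC (blue) and neuron (orange) libraries; a library with 0 counts in the pair has no point. Most pairs sit to the right of the dotted line at 50%, and Kdm1b with Dek sits near 0.

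Both genes were tested in 14 pairs, and in 13 of these both were called. The changes had the same direction in 11 pairs and opposite directions in 2. In the same-direction pairs the chromatin genes were Kmt2a, Kmt2e, Kmt5b, Setd7, Hdac7, Smarca2 and Smarcd3, which rose, and Chd8, Kdm5a and Smarcd1, the last with each of its partners, which fell. Kdm2b rose while Rnf34 fell. Kdm6b fell while its antisense RNA Kdm6bos (chr11:69292339-69293526, plus strand, GRCm39) rose. Kdm6bos had 177, 164 and 122 counts in ESC, compared with 270, 240 and 242 in neurons, or 134 ± 24.1 and 366 ± 19.2 CPM (log2 fold change 1.45, SE 0.14, adjusted p = 7.75e-12). Its share of the pair's counts was 85.4% ± 3.26 in ESC and 98.8% ± 1.08 in neurons. Since the rows of a pair may hold the same transcripts' reads, agreement within a pair is no independent observation.

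**Figure D5:**
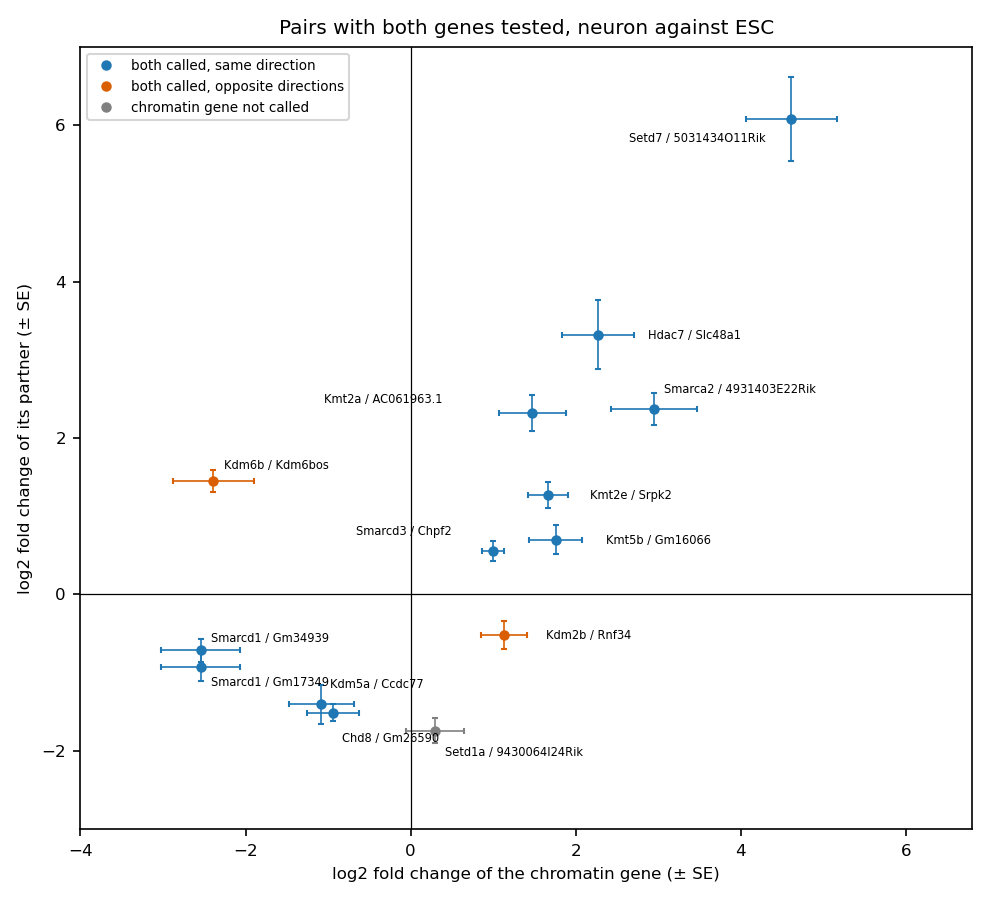
Log2 fold change, neuron against ESC, of the chromatin gene (x axis) and of its partner (y axis) for the 14 pairs in which both were tested; bars show ± SE. Of these, 11 pairs (blue) lie in the quadrants of equal sign, and Kdm6b with Kdm6bos and Kdm2b with Rnf34 (orange) do not.

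The counts of each chromatin gene and its partners were also summed into 26 loci and the whole table was fitted again, a choice made after seeing the data. Over the shared bases a sum does not depend on the strand given to a read. Outside them it still does, and Setd1a, for one, shares only 0.43% of its exonic bases with its partner. The sums therefore cannot settle which strand the reads came from. Of the 26 loci, 24 were tested and 23 were called, 15 higher and 8 lower, when 85.6% of all 7135 rows were called. The Kdm1b and Dek locus fell (log2 fold change -3.90, SE 0.13, adjusted p = 1.52e-26), as did that of Chd8 and Gm26590 (-1.50, SE 0.11, adjusted p = 1.31e-15). The Dnmt3a and Dnmt3aos locus rose (log2 fold change 3.21, SE 0.45, adjusted p = 3.48e-08), as did that of Setd7 and 5031434O11Rik (5.53, SE 0.40, adjusted p = 2.25e-15). In 3 loci the sum went against a called change of the chromatin gene's own row (for Smarcc1, called with no filter). The Kdm6b and Kdm6bos locus rose (log2 fold change 1.24, adjusted p = 3.26e-10), the Kdm2b locus with Rnf34 and A930024E05Rik fell (-0.37, adjusted p = 0.0399), and the Smarcc1 and Dhx30 locus rose (0.79, adjusted p = 0.00552). The Setd1a locus (-1.54) and the Hdac11 locus (1.56) also had the opposite sign to the chromatin gene's row, which was not called in either. The locus of Setd4 was not called.

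As a share of each library, the 86 genes matched by symbol took 0.208% ± 0.002 of the counts in ESC and 0.198% ± 0.008 in neurons (exact two-sided permutation test, p = 0.2, where 0.1 is the lowest possible with 3 against 3). Without Kdm1b the shares were 0.0839% ± 0.005 and 0.186% ± 0.010 (exact permutation p = 0.1). Without mitochondrial genes and the 10 most counted genes in the denominator, the difference between neurons and ESC for the 86 turned from -0.009 to 0.017 percentage points. The partners took 0.325% ± 0.051 in ESC and 0.412% ± 0.011 in neurons (exact permutation p = 0.1), and 0.167% ± 0.024 and 0.322% ± 0.005 without Gm26590.

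Other genes of these complexes and pathways were taken from a list of 83, of which 82 had a row. Of 31 tested, 7 rose and 14 fell (21 called), with a median log2 fold change of -0.43. The background was 85.6% of all tested genes, 47.0% higher and 38.6% lower. With no filter, 12 rose and 35 fell of 82, against 40.8% of all genes, 21.2% higher and 19.6% lower. With total counts 14 rose and 10 fell of 31, against 86.5%, 56.6% higher and 29.9% lower. Of the called genes with the largest changes, 7 are described here. Brd9, a BAF subunit, had 24, 14 and 18 counts in ESC and 0 in neurons (adjusted p = 9.32e-08). Kat8, an H4 acetyltransferase, fell from 63, 22 and 43 counts to 1, 0 and 0 (adjusted p = 4.98e-10), and Uhrf1, which brings Dnmt1 to replicated DNA, from 53, 34 and 39 to 2, 1 and 0 (adjusted p = 5.06e-10). Rbbp4, a histone chaperone of PRC2 and NuRD, fell from 77, 41 and 52 counts to 0, 0 and 5 (log2 fold change -4.25, adjusted p = 1.01e-08). Hcfc1, a COMPASS partner, fell from 27, 22 and 22 counts to 0, 1 and 1 (adjusted p = 1.3e-07), and Bcl7c, a BAF subunit, from 19, 14 and 18 to 1, 1 and 0 (adjusted p = 2.62e-06). Phf1, a PRC2 cofactor, was the only one of these 7 to rise, from 1 count in each ESC library to 7, 8 and 8 (log2 fold change 3.50, SE 0.57, adjusted p = 7.58e-07).

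By complex, the tested BAF subunits without a Smarc symbol gave 3 rises and 4 falls of 10, and the PRC partners of EZH 2 and 2 of 5. The COMPASS partners gave 1 rise and 2 falls of 3, the NuRD, Sin3 and CoREST partners 1 and 2 of 6, and the acetyltransferases 0 and 2 of 4. Of the DNA methylation readers and cofactors, 0 rose and 2 fell of 3. Exons lie opposite to 15 of the 31 tested pathway genes, so the limit on strand holds for them as well.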

How the data were processed

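The authors deposited a table of raw read counts per gene for 6 libraries, with gene positions, strand and exonic length. Per the submitters' processing notes, cutadapt, STAR and RSEM and the build GRCm39 (mm39) were used, and the columns are laid out as featureCounts writes them. How strand was treated in counting is not given in the sources used here. Symbols came from GENCODE M21 by identifier (91.3% of genes matched) and promoter windows from RefSeq GRCm38.p6. Shared exonic bases were found from the table's own exon positions with bedtools 2.31.1.

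Counts were used as deposited. The filter on low counts was filterByExpr of edgeR (minimum count 10), and libraries were scaled by TMM and groups compared with glmQLFit (robust) and glmQLFTest in edgeR 4.0.16 (R 4.3.3). A test past 2-fold used glmTreat. All p-values were adjusted by Benjamini-Hochberg over all genes tested, with 0.05 as threshold. The SE of a log2 fold change is its size divided by the root of the F statistic and is approximate. A group at 0 is set against 3 counts per library, and ratios with 1 to 3 counts in a group have exact conditional 95% intervals that cover counting error only. On simulated data for 7150 genes the test called 86.5% of 200 genes changed 4-fold, and 4.95% of its calls were unchanged genes. In the data themselves 85.6% of the tested genes were called, so these rates hold for the simulated setting only. They give no error rate for the calls above.

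Members, lists and tests were chosen with earlier results of these data known. Full values are given for the 10 highest and 10 lowest called members and partners without overlap, and for a fixed list of genes; of other pathway genes, the 8 with the largest change, of which 1 is not reported here. Alternatives were other scalings, filters and tests (DESeq2 1.42.0, limma 3.58.1), a replicate block, leaving out each replicate, and, added after seeing the data, a fit restricted to genes without shared exonic bases, a fit without the most counted and mitochondrial genes, and summed loci.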

Additional observations from a re-analysis of the deposited data

How the results depend on the processing

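Of 776 gene values under the alternatives, 734 kept their side of the threshold, among them 15 values of 6 uncalled genes that changed sign (Tet1 among these), 34 lost and 6 gained a call, and 2 reversed, both with total counts (Gm34939, 0.02, and Rnf34, 0.21 on the log2 scale). Counts of calls moved with the genes tested. With no filter the genes matched by symbol gave 46 calls in place of 27, 29 in place of 17 past 2-fold, and the pathway genes 47 in place of 21, since more genes were tested. On genes sharing no exonic base, a fit that tests fewer genes, these were 10, 6 and 12. DESeq2's Wald test past 2-fold gave 9, and the cause was not tested. Leaving out a replicate gave 20 to 36 calls by symbol, 13 to 26 past 2-fold (26 without neuron replicate 2), 21 to 22 for partners, 12 to 14 past 2-fold, and 15 to 32 for pathway genes (32 without neuron replicate 2). The difference in library share of the genes matched by symbol ran from -0.014 to -0.007 percentage points and turned to 0.017 without mitochondrial and the 10 most counted genes, and the cause was not tested. For partners it ran from 0.071 to 0.116. With total counts, 76.9% of calls by symbol were higher in place of 63.0%, 78.9% of partner calls in place of 63.6%, 58.3% of pathway calls in place of 33.3%, and 65.5% of calls over all genes in place of 54.9%.

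Replicate numbers are shared by the titles but did not pair the samples: same-numbered libraries correlated at 0.019, 0.0039 and -0.022 in their deviations from the group means. A fit with the number as a replicate block called 27 genes by symbol, 22 partners and 20 pathway genes, and 16 and 15 past 2-fold.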
